A study of Mus musculus with 6 samples.

Results

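The genes described here encode the nuclear-encoded subunits of the oxidative phosphorylation (OXPHOS) machinery. They were chosen by symbol prefix: Nduf with a, b, c, s or v (without the Ndufaf assembly factors) for complex I, Sdha to Sdhd for complex II, Uqcr and Cyc1 for complex III, Cox4 to Cox8 for complex IV and Atp5 for complex V. Of 15483 genes listed in each library, 88 met the rule, with 43 in complex I, 4 in complex II, 9 in complex III, 15 in complex IV and 17 in complex V. The labels describe RNA-seq of regulatory T cells (Tregs, which hold other immune cells in check) sorted from mouse bone marrow. The gate was on CD3, CD4 and Foxp3 and left out cells with NK1.1. There were 3 control libraries and 3 libraries from mice taken 3 months after irradiation, all of wild-type genotype, and the series title links the study with premature ageing. The labels used here name no radiation dose, age or strain, and do not say whether the replicates were separate animals.

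Complexes I to IV form the respiratory chain of the inner mitochondrial membrane. Complexes I and II pass electrons from NADH and succinate to ubiquinone, complex III passes them to cytochrome c and complex IV to oxygen, while complexes I, III and IV pump protons. Complex V, the ATP synthase, lets the protons flow back and makes ATP. Each complex except complex II also holds subunits encoded by mitochondrial DNA, and 0 mitochondrially encoded genes are listed in the tables used here, so these were not analysed here. Tregs are known to rely on mitochondrial respiration more than effector T cells do.

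All values were read as FPKM, a read measure divided by transcript length and library depth, although headers name no unit. Levels are compared between genes on that reading. How reads matching more than 1 gene were counted is not stated. Column totals ran from 451444 to 470375 FPKM in control and from 480854 to 485365 FPKM after irradiation. Depth, recovered from the steps of low values and relative to control replicate 1, was 98.5% to 103% in the other control libraries and 81.6% to 92.7% in irradiated libraries. Markers of other cell types were present in all 6 libraries and moved between groups. In each library the neutrophil markers summed to far more FPKM than the T cell markers. The values below therefore cannot be assigned to Tregs alone. The 18 T cell markers, all above 0 in each library, summed to 546 to 569 FPKM in control and 335 to 341 FPKM after irradiation, and 15 of them were lower. The 15 neutrophil markers summed to 69278 to 74439 FPKM in control and 101104 to 104048 FPKM after irradiation, and 12 were higher. Most tested markers of monocytes and macrophages (11 of 12), B cells (9 of 9), erythroid cells (7 of 10) and eosinophils (7 of 9) were lower. Of all tested genes 6.29% were higher and 10.3% lower. OXPHOS genes are transcribed in all of these cells, so fewer cells of a type and less RNA per cell cannot be told apart, and the part of the cell mixture in the values below was not tested.

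The OXPHOS genes as a group stayed near their control level, with small rises of single subunits and 1 large fall. Of the 88 genes, 84 averaged 1 FPKM or more and were tested, and 10 were higher and 1 lower in irradiated libraries (limma, Benjamini-Hochberg adjusted p below 0.05 over all genes). That is 11.9% higher, against 6.29% of all 10666 tested genes, and 1.19% lower, against 10.3% of all tested genes. The median log2 change (irradiated minus control) was 0.00 over the tested members and -0.02 over all tested genes. With median-of-ratios scaling both moved up, to 0.04 and 0.01. For 78 of 84 members the 95% confidence interval of the log2 change lay within 0.5 of 0 on either side, which held for 65.8% of all tested genes. Members are abundant (median level 81.3 FPKM, against 11.5 FPKM over all tested genes), and their median standard error was 0.07, against 0.11.

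The genes that rose were Ndufv3, Ndufa2, Ndufb3, Ndufb6 and Ndufc2 of complex I, Cox7c and Cox7a2 of complex IV, and Atp5l, Atp5md and Atp5g1 of complex V. Cox6a2 of complex IV fell. All 7 core subunits of complex I, all members of complexes II and III, and the 5 subunits of the F1 head and central stalk of complex V were without a call. The count of risen members depended on the libraries and settings used. It was 4 without control replicate 1, 6 without control replicate 2 and 7 without control replicate 3. Without irradiated replicates 1, 2 and 3 it was 6, 5 and 5. It was 5 when genes of low level were kept in the fit, and 1 (Ndufv3) when the variance was fitted without a trend over expression. The count over all genes moved too. It was 671 in the fit above and 414 to 684 in fits that left out a library. With genes of low level kept it was 504, and without the trend 480.

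**Figure D1:**
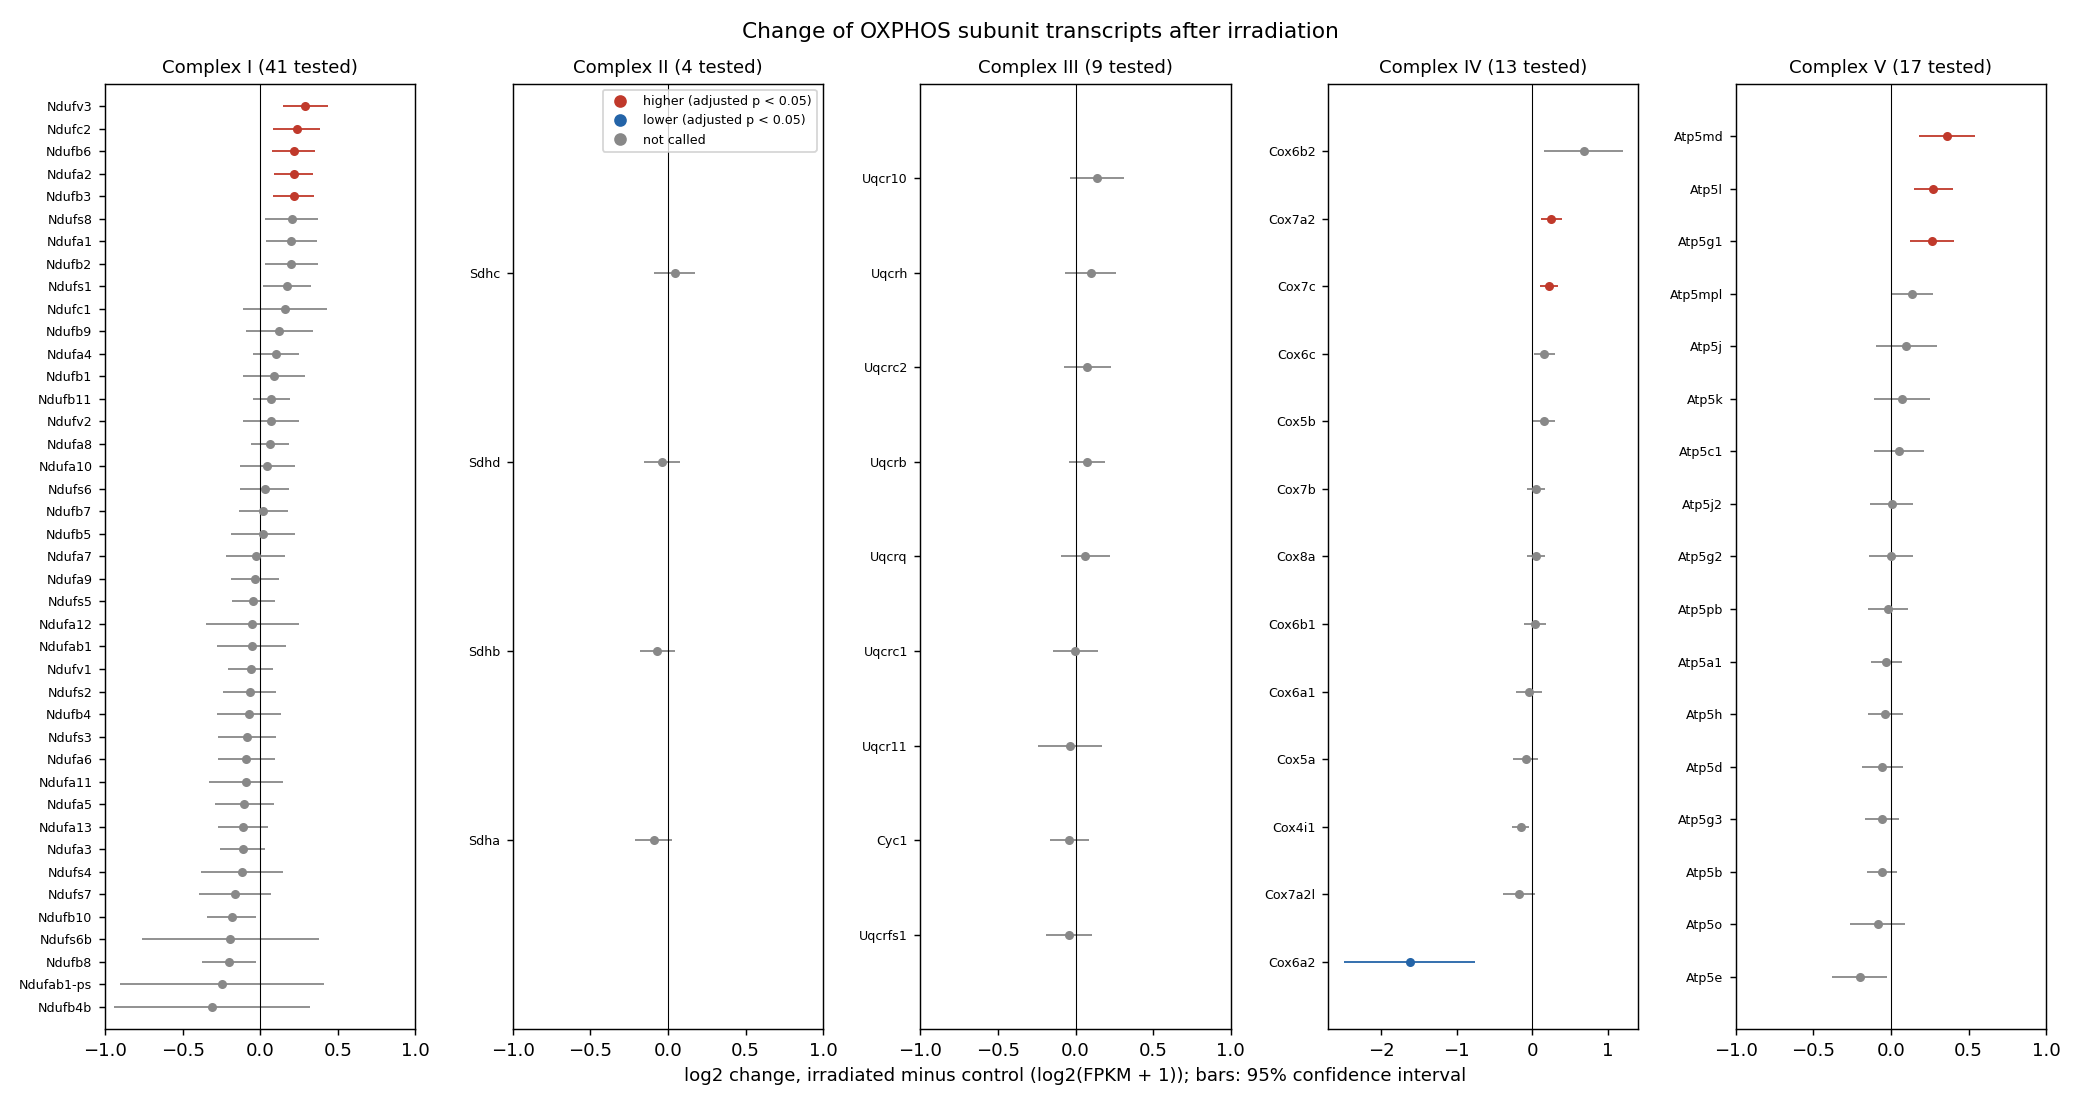
Log2 change (irradiated minus control, on log2(FPKM + 1)) of the 84 tested OXPHOS genes, 1 panel per complex, with 95% confidence intervals; the axis of complex IV is wider than that of the others. The 10 genes that rose (red) lie between 0.22 and 0.36, and Cox6a2 (blue) lies at -1.62.

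In 14 members all 3 irradiated values lay above all 3 control values (16.7%, against 13.5% of all tested genes), and in 5 they lay below (5.95%, against 20.1%). All 11 called members were among these 19. The other 8 did not pass: Ndufa1, Ndufb2, Ndufs1 and Atp5mpl lay above, and Cox4i1, Ndufb8, Sdha and Sdhb lay below. In the remaining 65 tested members the groups overlapped.

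Promoters were examined because OXPHOS genes are known to share sites for the factors NRF1, GABP (an ETS factor) and YY1. The window ran from 250 bases before to 50 bases after each gene's start, in RefSeq GRCm38.p6, and 69 of the 88 members had an entry. Exact matches on either strand were sought to GCGCA and GCGC with any 1 base between them for NRF1, to CCGGAAG for ETS factors and to AAGATGGC for YY1. The NRF1 word was in 17 of 69 member promoters (24.6%), against 12.3% of 8681 tested genes and 5.19% of all 27025 genes with an entry. The ETS word was in 17 members as well (24.6%), against 21.8% of tested genes and 9.93% of all genes. The YY1 word was in 10 members (14.5%), against 5.78% and 3.19%. Both the NRF1 and the ETS word were in 4 members, the NRF1 and YY1 words in 1, and the ETS and YY1 words in 1. Of the 9 risen members with an entry, 0 held the NRF1 word, 0 the YY1 word and 3 (Ndufb6, Atp5l and Atp5md) the ETS word. Printed here are the 250 bases before the start of 2 risen genes with the ETS word, Atp5l and Ndufb6, and of the 2 members with 3 NRF1 words upstream, Sdha and Ndufb4, which were not called. They are given 5′ to 3′ on the gene's strand, with matches on either strand in capitals.
Atp5l, chr9:44920743-44920992, minus strand: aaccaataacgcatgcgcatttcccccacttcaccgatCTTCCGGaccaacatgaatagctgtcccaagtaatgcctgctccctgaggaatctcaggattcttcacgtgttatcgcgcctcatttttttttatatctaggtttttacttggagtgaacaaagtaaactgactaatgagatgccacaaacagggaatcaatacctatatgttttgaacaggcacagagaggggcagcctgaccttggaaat
Ndufb6, chr4:40279422-40279671, minus strand: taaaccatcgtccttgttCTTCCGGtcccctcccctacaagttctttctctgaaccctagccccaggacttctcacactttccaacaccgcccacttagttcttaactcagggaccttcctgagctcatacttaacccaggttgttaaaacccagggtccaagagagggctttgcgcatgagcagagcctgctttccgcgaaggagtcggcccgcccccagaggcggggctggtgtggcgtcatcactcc
Sdha, chr13:74350241-74350490, minus strand: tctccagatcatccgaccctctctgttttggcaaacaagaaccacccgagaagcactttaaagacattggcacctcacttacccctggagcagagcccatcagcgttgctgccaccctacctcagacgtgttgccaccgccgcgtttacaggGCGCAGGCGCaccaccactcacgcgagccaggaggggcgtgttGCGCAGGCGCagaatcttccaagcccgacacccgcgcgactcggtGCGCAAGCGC
Ndufb4, chr16:37654369-37654618, minus strand: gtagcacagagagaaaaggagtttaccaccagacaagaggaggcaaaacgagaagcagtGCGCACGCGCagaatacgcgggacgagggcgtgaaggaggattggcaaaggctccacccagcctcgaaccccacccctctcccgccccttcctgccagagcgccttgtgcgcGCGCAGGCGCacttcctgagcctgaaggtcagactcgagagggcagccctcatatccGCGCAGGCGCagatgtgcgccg

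Levels differed between the complexes. The median FPKM of a tested member was 142 in complex V, 137 in complex IV, 98.7 in complex III, 80.9 in complex II and 54.6 in complex I, over the 6 libraries. The 41 genes behind the complex I median include 3 low gene copies and Ndufa4. The medians of its core and accessory subunits were 50.6 and 61.9 FPKM. The highest level of any member was that of Atp5b, the catalytic beta subunit of complex V, with a mean of 459.7 ± 17.7 FPKM (SD, n = 3) over controls and 441 ± 5.67 FPKM after irradiation. Next came Cox4i1, the largest nuclear-encoded subunit of complex IV, at 387 FPKM over the 6 libraries, then Atp5e (315 FPKM) and Atp5a1 (297 FPKM), whose values overlap. In complex I the order began with Ndufa3 (218 FPKM) and Ndufa4 (215 FPKM), which do not differ beyond their spread. Setting aside gene copies and tissue-specific isoforms, the lowest levels were those of Ndufab1, the mitochondrial acyl carrier protein (13.3 FPKM), and Ndufa11 (14.0 FPKM), a membrane arm subunit. Together the 88 genes took 1.93% ± 0.0453 of a control library's FPKM total and 1.88% ± 0.00478 after irradiation.

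**Figure D2:**
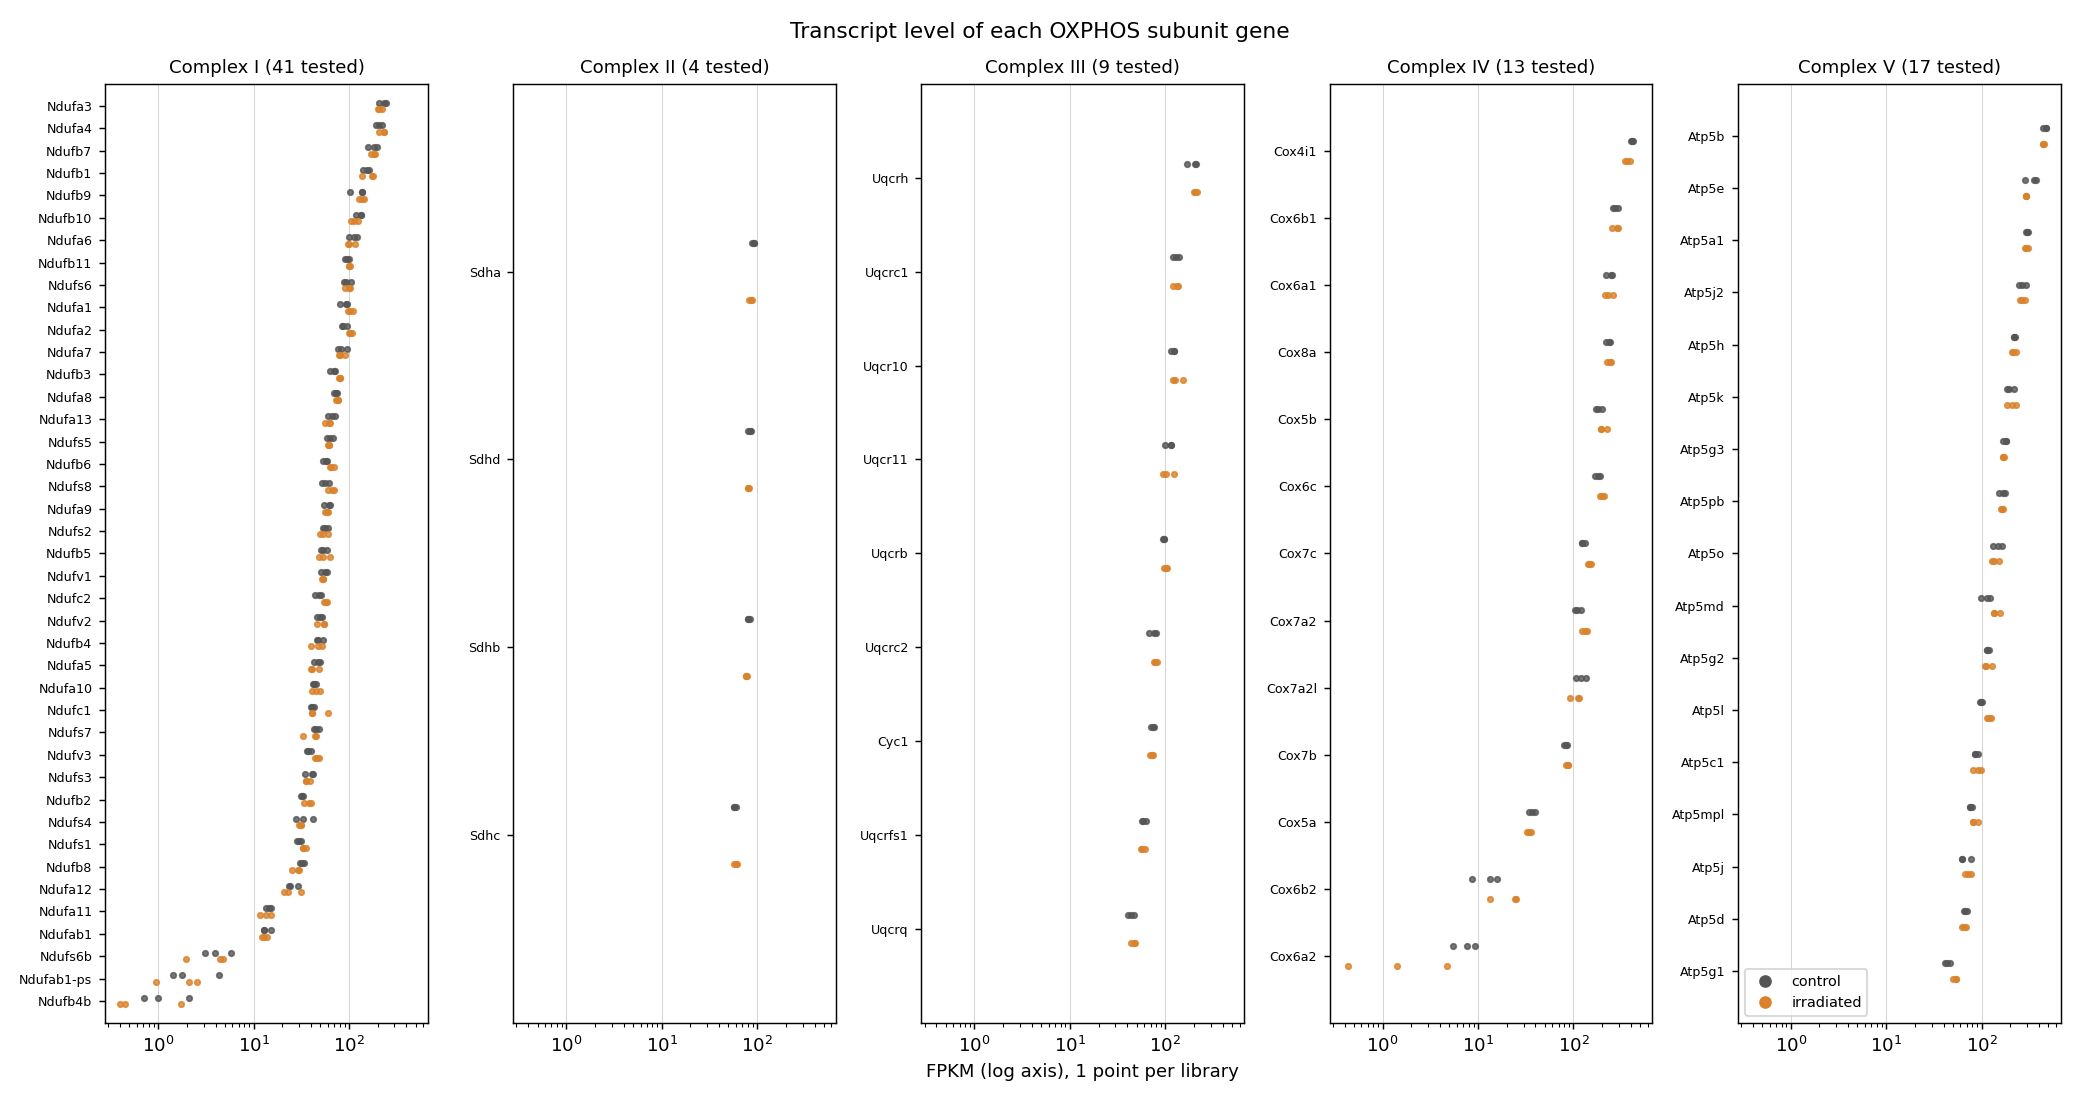
FPKM (log axis) of the 84 tested OXPHOS genes, 1 point per library, ordered by mean level within each complex. Control (grey) and irradiated (orange) points overlap for most genes, and the range runs from Ndufb4b at a mean of 1.06 FPKM to Atp5b at 450.4 FPKM.

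Control replicate 3 stood below the other controls in most members. It had the lowest of the 3 control values in 58 of 84 tested members (69.0%), against 30.7% of all tested genes. This was not particular to the members. The share was 80.0% for neutrophil, 77.8% for eosinophil and 70.0% for erythroid markers, and 66.7% for tricarboxylic acid cycle genes. It was 33.3% for T cell markers and 14.3% for plasmacytoid dendritic cell markers. Control replicate 3 also had the lowest column total (451444 FPKM). The summed level of all 88 genes was 9209, 9186 and 8496 FPKM in the controls, in the order of their numbers, and 9020, 9055 and 9145 FPKM after irradiation. The irradiated sums thus lay within the range of the controls. Without control replicate 3 the members' median log2 change was -0.03, and 7 members were higher and 4 lower. Those 4 were Cox4i1, Atp5e, Ndufa3 and Ndufb10, named here after their values were seen, as was Cox6c, which was gained as higher. Ndufb3, Ndufb6, Ndufc2, Cox7a2 and Cox6a2 lost their call.

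**Figure D3:**
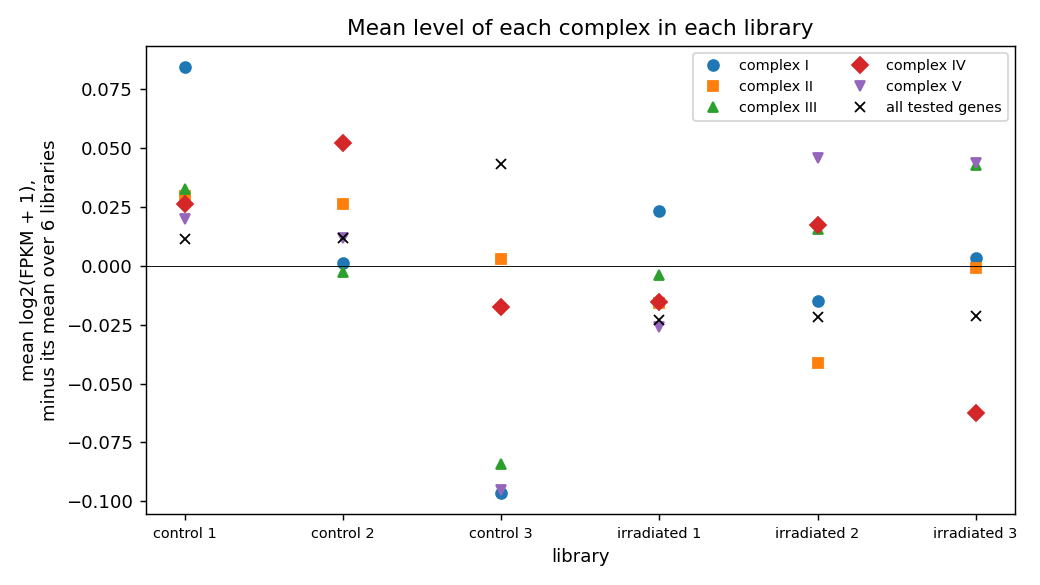
Mean log2(FPKM + 1) over the tested members of each complex in each library, minus its mean over the 6 libraries. Control replicate 3 is the lowest library for complexes I, III and V and the highest for all tested genes.

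Complex I oxidises NADH. Most of its 7 core nuclear-encoded subunits carry the flavin or iron-sulphur clusters or bind quinone. The 7 had 0 calls, against 16.6% of all tested genes called, and log2 changes from -0.16 (Ndufs7) to 0.20 (Ndufs8). Ndufs1, which holds several iron-sulphur clusters, read 28.4, 31.2 and 30.2 FPKM in control and 33.4, 32.8 and 35.3 FPKM after irradiation. These groups do not overlap, but the log2 change of 0.17 ± 0.07 (SE) did not pass (limma adjusted p = 0.125). Ndufs8, another carrier of iron-sulphur clusters, had a log2 change of 0.20 ± 0.08 (adjusted p = 0.102). For all 7 core genes the 95% interval lay within 0.5 of 0.

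Among the 30 accessory subunits of complex I, which surround the core and are needed for its assembly and stability, 5 rose (16.7%, against 6.29% of all tested genes) and 0 fell (against 10.3%). Ndufv3 (chromosome 17, 31520115 to 31531326), a small subunit beside the flavin site, read 37.2, 36.7 and 39.8 FPKM in control and 49.0, 46.1 and 44.5 FPKM after irradiation. All irradiated values lie above all control values, and the log2 change was 0.29 ± 0.07 (adjusted p = 0.0120). The call was lost without control replicate 2 (adjusted p = 0.0551) and held in the other 5 fits that left out a library.

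Ndufa2, a subunit of the matrix arm, read 85.1, 94.4 and 86.9 FPKM in control and 102, 106 and 101 FPKM after irradiation (log2 change 0.22 ± 0.06, adjusted p = 0.0248). Ndufb3, of the membrane arm, read 69.4, 72.0 and 63.9 FPKM in control and 79.8, 81.1 and 77.8 FPKM after irradiation (0.22 ± 0.06, adjusted p = 0.0317). In both genes the lowest irradiated library exceeded the highest control library. The call of Ndufa2 was lost without control replicate 1 or irradiated replicates 1 or 2 (adjusted p up to 0.0978). The call of Ndufb3 held only without control replicate 2 (adjusted p up to 0.0935 elsewhere).

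Ndufb6 and Ndufc2, both of the membrane arm, made up the rest of the rises. Ndufb6 (chromosome 4, 40270591 to 40279421), whose promoter is printed above, read 58.4, 57.6 and 53.9 FPKM in control and 70.0, 63.8 and 64.1 FPKM after irradiation (log2 change 0.22 ± 0.06, adjusted p = 0.0375). Ndufc2 read 51.4, 48.9 and 44.6 FPKM in control and 59.4, 54.5 and 56.9 FPKM after irradiation (0.24 ± 0.07, adjusted p = 0.0389). The groups do not overlap in either gene. Both calls depended on single libraries: that of Ndufb6 was lost whichever of the 6 libraries was left out (adjusted p from 0.0554 to 0.124) and that of Ndufc2 in 5 of 6, holding only without control replicate 1 (adjusted p up to 0.115). In the GENCODE annotation exons of Ndufb6 overlap those of Smim27 on the opposite strand, which had a log2 change of -0.42 (adjusted p = 0.0802). In RefSeq Smim27 ends at base 40270228, short of Ndufb6, and the spans do not overlap. Exons of Ndufa2 overlap those of Tmco6 (log2 change 0.06). The kit was a stranded one, but the labels do not say whether counting used strand.

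The other 25 accessory subunits had log2 changes from -0.20 to 0.20, none of them called. At the ends of that range stood Ndufb8, which read 34.2, 32.5 and 30.4 FPKM in control and 29.7, 25.6 and 28.9 FPKM after irradiation (log2 change -0.20 ± 0.08, adjusted p = 0.118), and Ndufa1 (0.20 ± 0.08, adjusted p = 0.0993). Ndufa3, the most abundant gene with a complex I prefix, had a log2 change of -0.11 ± 0.07 (adjusted p = 0.283). Ndufa4 bears a complex I name but is now placed in complex IV. It read 224, 192 and 207 FPKM in control and 231, 205 and 232 FPKM after irradiation, which overlap.

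The remaining 5 genes with a complex I prefix were low. Ndufb4b, Ndufb4c and Ndufs6b are copies of Ndufb4 and Ndufs6, and Ndufab1-ps is a pseudogene of Ndufab1, so reads can be shared with the parent genes and the values are uncertain. Ndufs6b averaged 4.29 ± 1.42 FPKM (SD, n = 3) over controls and 3.72 ± 1.55 FPKM after irradiation, Ndufab1-ps at 2.52 ± 1.59 and 1.88 ± 0.844 FPKM, and Ndufb4b at 1.26 ± 0.723 and 0.858 ± 0.754 FPKM, all without a call. Ndufb4c was listed at 0 in 2 libraries and reached 1.16 FPKM in irradiated replicate 2, and it was not tested. Ndufa4l2, a hypoxia-induced relative of Ndufa4, was listed at 0.251 FPKM in control replicate 1 and at 0 in the other 5 libraries.

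Complex II, succinate dehydrogenase, is shared with the tricarboxylic acid cycle. Its 4 genes had log2 changes from -0.09 to 0.04 and 0 calls, against 16.6% of all tested genes called. Sdha, the flavoprotein that oxidises succinate, read 92.9, 93.6 and 88.5 FPKM in control and 88.0, 83.1 and 86.6 FPKM after irradiation. Sdhb, the iron-sulphur subunit, read 83.5, 80.4 and 80.6 FPKM in control and 76.9, 78.9 and 77.1 FPKM. Both catalytic genes were separated, with the irradiated values below, and neither passed (log2 changes -0.09 ± 0.05 and -0.07 ± 0.05, adjusted p = 0.279 and 0.414). The membrane anchors Sdhc and Sdhd overlapped between groups, at 57.9 ± 1.83 and 83.3 ± 2.72 FPKM in control and 59.7 ± 2.25 and 81.2 ± 0.869 FPKM after irradiation. The intervals of all 4 changes lay within 0.5 of 0.

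Complex III moves electrons from ubiquinol to cytochrome c. Its 9 genes had log2 changes from -0.04 to 0.14 and 0 calls, against 16.6% of all tested genes called. The groups overlapped in all 9, and in 7086 of all 10666 tested genes. Cyc1, which encodes cytochrome c1, read 75.3, 74.9 and 70.9 FPKM in control and 74.3, 68.5 and 72.0 FPKM after irradiation. Uqcrfs1, the Rieske iron-sulphur protein, stood at 59.5 ± 3.31 and 57.7 ± 3.43 FPKM. Among the supernumerary subunits Uqcr10 had the largest log2 change, 0.14 ± 0.08 (adjusted p = 0.271), and read 123, 122 and 115 FPKM in control and 120.4, 126 and 152 FPKM after irradiation. Irradiated replicate 3 alone stood apart there. The highest and lowest genes, Uqcrh (201 FPKM) and Uqcrq (45.1 FPKM), had log2 changes of 0.10 ± 0.08 and 0.06 ± 0.07, and Uqcrb had 0.07 ± 0.05.

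Complex IV, cytochrome c oxidase, held 2 genes that rose and the member with the largest fall. Of its 13 tested genes 2 were higher (15.4%, against 6.29% of all tested genes) and 1 lower (7.69%, against 10.3%). Cox7c (chromosome 13, 86044798 to 86046795), a small membrane subunit, read 123, 133 and 124 FPKM in control and 143, 154 and 146 FPKM after irradiation (log2 change 0.22 ± 0.05, adjusted p = 0.0151). Every irradiated value exceeds every control value. The call was lost without control replicate 1 (adjusted p = 0.0633) or irradiated replicate 2 (adjusted p = 0.0643).

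Cox7a2 (chromosome 9, 79755241 to 79771422), the widely expressed form of subunit 7a, read 108, 119 and 104 FPKM in control and 137, 123 and 133 FPKM after irradiation (log2 change 0.25 ± 0.06, adjusted p = 0.0208). Its relative Cox7a2l, which links complex IV to complex III in supercomplexes, read 119, 136 and 107 FPKM in control and 92.4, 112 and 115 FPKM after irradiation (-0.18 ± 0.10, adjusted p = 0.235). The Cox7a2 groups do not overlap and those of Cox7a2l do. The Cox7a2 call held without control replicate 2 or irradiated replicate 2 and was lost in the other 4 fits (adjusted p up to 0.0751). Of the summed FPKM of the 7a genes, Cox7a2 took 47.7% ± 1.34 (SD, n = 3) in control and 55.1% ± 3.88 after irradiation, with no overlap (46.5% to 49.1% against 52.4% to 59.6%). For the Cox7a2 share the two-sided exact permutation p was 0.1 (adjusted 0.167 over the 5 paralogue shares compared this way). In this exact permutation test 0.1 is the smallest p that 3 against 3 allows. The exact permutation p was 0.2 (adjusted 0.25) for the share of Cox6b2 and 0.9 (adjusted 0.9) for that of Cox4i2.

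Cox6a2 (chromosome 7, 128205435 to 128206366) encodes the muscle form of subunit 6a and is also known from plasmacytoid dendritic cells, the main makers of type I interferon. It read 5.43, 9.34 and 7.75 FPKM in control and 1.43, 4.73 and 0.429 FPKM after irradiation. The groups do not overlap, although irradiated replicate 2 lies close to the lowest control, and the log2 change was -1.62 ± 0.39 (adjusted p = 0.0156). The call was lost without control replicate 2 (adjusted p = 0.0608) or control replicate 3 (adjusted p = 0.0518). The log2 change ran from -2.16 without irradiated replicate 2 to -1.16 without irradiated replicate 3. The ubiquitous Cox6a1 stood at 243 ± 18.5 FPKM in control and 235 ± 24.7 FPKM after irradiation (log2 change -0.05 ± 0.08), so Cox6a2 made up 3.02% ± 0.822 of the subunit 6a transcripts in control and 0.864% ± 0.815 in irradiated libraries (exact permutation p = 0.1, adjusted 0.167).

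Markers of plasmacytoid dendritic cells and an overlapping gene moved with Cox6a2. The 7 markers of these cells summed to 121 to 128 FPKM in control and 38.5 to 49.7 FPKM after irradiation. Of these, 6 of 7 were lower, against 10.3% of all tested genes, with a median log2 change of -1.17. Siglech, the defining surface receptor, had a log2 change of -1.95 (adjusted p = 1.67e-06) and remained above 0 in each library, while Klk1 was listed at 0 in 2 irradiated libraries. Such a fall was not particular to these cells. The median log2 change was -1.62 for B cell markers (9 of 9 tested lower). It was -1.15 for monocyte and macrophage markers (11 of 12 lower). Exons of Cox6a2 overlap those of Itgad, an integrin chain gene on the opposite strand. In RefSeq coordinates Itgad ends at base 128205504 and Cox6a2 begins at base 128205435, so only a short stretch is shared. Itgad read 11.7, 15.0 and 12.5 FPKM in control and 3.84, 5.36 and 4.55 FPKM after irradiation (log2 change -1.33 ± 0.13, adjusted p = 4.84e-05). The kit was a stranded one, but whether counting used strand is not stated. If it did not, reads of Cox6a2 and Itgad cannot be told apart where they overlap. The part of either gene or cell type in the Cox6a2 value was not tested.

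**Figure D4:**
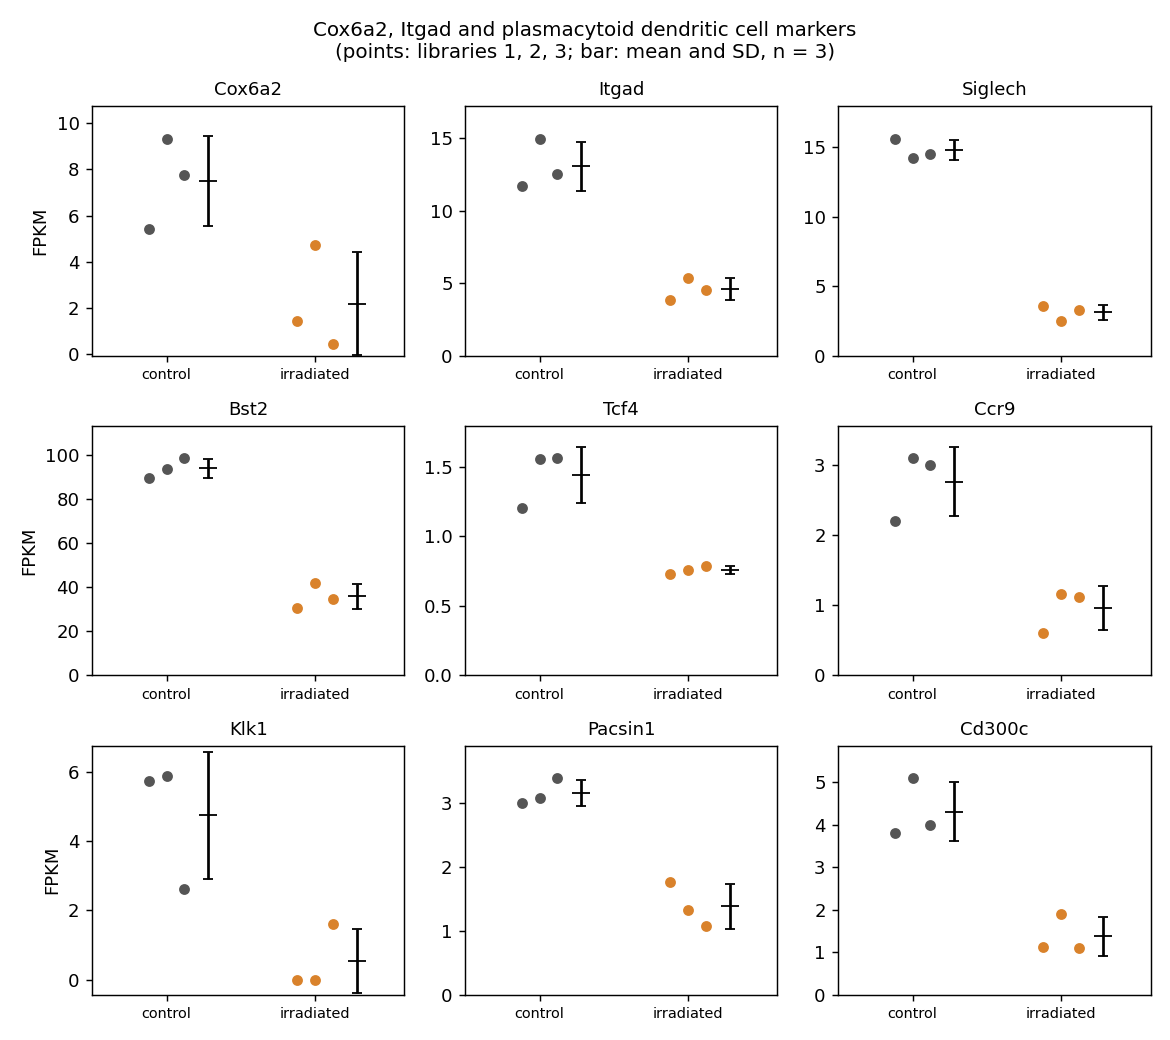
FPKM of Cox6a2, of its opposite-strand neighbour Itgad and of the 7 plasmacytoid dendritic cell markers in each library (points), with mean and SD (n = 3); axes run from 0 or from the lower end of the SD bar. In all 9 genes the irradiated points lie below the control points.

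The other genes of complex IV were without a call. Cox4i1, the most abundant, read 409, 419 and 396 FPKM in control and 365, 390.3 and 344 FPKM after irradiation (log2 change -0.15 ± 0.05, adjusted p = 0.0685). Its groups do not overlap, and it passed, as lower, without control replicate 3 (adjusted p = 0.0427) or irradiated replicate 2 (adjusted p = 0.0372). Its hypoxia- and lung-linked relative Cox4i2 stood at 0.607 ± 0.369 FPKM in control and 0.459 ± 0.408 FPKM, below the level tested. Cox6b2, the testis form of subunit 6b, read 15.7, 8.70 and 13.3 FPKM in control and 25.2, 13.3 and 24.4 FPKM after irradiation. Those values overlap. The log2 change of 0.68 ± 0.24 missed the threshold (adjusted p = 0.0773), and the change ran from 0.45 without control replicate 2 (adjusted p = 0.249) to 0.96 without irradiated replicate 2, where it passed (adjusted p = 0.00728). The ubiquitous Cox6b1 stood at 273 ± 16.6 and 279 ± 22.5 FPKM. Cox7a1, the muscle form of subunit 7a, stood at 0.665 ± 0.315 and 0.586 ± 0.544 FPKM and was not tested.

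Complex V, the ATP synthase, held 3 genes that rose, all of its membrane part. That is 3 of 17 tested (17.6%, against 6.29% of all tested genes), and 0 fell (against 10.3%). Atp5l (chromosome 9, 44913248 to 44920742), subunit g, whose promoter is printed above, read 102, 98.5 and 96.2 FPKM in control and 113, 127 and 119.8 FPKM after irradiation. Atp5md (chromosome 19, 47083471 to 47090647), a small subunit that with subunit g helps to hold ATP synthase dimers together, read 113, 122 and 98.6 FPKM in control and 136, 136 and 157 FPKM after irradiation. In both the irradiated values all exceed the control values. Exons of Atp5l overlap those of Gm30934 on the opposite strand, for which no value was used here. Log2 changes were 0.27 ± 0.06 (adjusted p = 0.00713) for Atp5l and 0.36 ± 0.08 (adjusted p = 0.0110) for Atp5md. Among the 11 called members, these were the 2 whose calls held whichever of the 6 libraries was left out (adjusted p up to 0.0332 and 0.0474). Both were lost without the variance trend (0.0602 and 0.0680), and that of Atp5md also without the filter on low genes (0.0565).

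The other 3 supernumerary membrane subunits did not pass. Atp5mpl read 78.9, 75.1 and 75.5 FPKM in control and 81.2, 90.9 and 81.0 FPKM after irradiation, which are separated (log2 change 0.14 ± 0.06, adjusted p = 0.157). Atp5k and Atp5j2 had log2 changes of 0.07 and 0.00.

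The c ring, which turns as protons pass, is built from a subunit encoded by 3 genes that give the same mature protein. Atp5g1 (chromosome 11, 96072793 to 96075694), the least abundant, read 41.7, 43.0 and 46.3 FPKM in control and 50.6, 53.9 and 53.6 FPKM after irradiation (log2 change 0.27 ± 0.06, adjusted p = 0.0156). Atp5g2 stood at 116 ± 3.30 and 116 ± 10.5 FPKM (log2 change 0.00 ± 0.07) and Atp5g3 at 176 ± 7.83 and 169 ± 2.87 FPKM (-0.06 ± 0.05). The share of Atp5g1 in the 3 genes was 13.0% ± 0.990 in control and 15.6% ± 0.558 in irradiated libraries (exact permutation p = 0.1, adjusted 0.167). The summed level of the 3 genes was 336 ± 7.48 FPKM in control and 338 ± 14.2 FPKM after irradiation. The Atp5g1 call was lost without control replicates 1 or 2 or irradiated replicates 2 or 3 (adjusted p up to 0.0694).

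The F1 head and the stalks of complex V were without a call, against 16.6% of all tested genes called. Among the 5 genes of the head and central stalk, log2 changes ran from -0.20 (Atp5e) to 0.05 (Atp5c1). Atp5e, the epsilon subunit, read 356, 371 and 286 FPKM in control and 288, 292 and 294 FPKM after irradiation (-0.20 ± 0.08, adjusted p = 0.118), so that control replicate 3 lay just below the 3 irradiated libraries and the other controls well above. Atp5b and Atp5a1, the beta and alpha subunits, had log2 changes of -0.06 ± 0.04 and -0.03 ± 0.05. The 4 peripheral stalk genes, Atp5pb, Atp5h, Atp5j and Atp5o, ran from -0.09 to 0.10. Among members without a call, exons of Atp5a1 overlap those of Haus1, of Atp5j those of Gabpa, of Cox4i1 those of Emc8 and of Ndufs1 those of Eef1b2, each on the opposite strand, so their reads may likewise be shared.

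**Figure D5:**
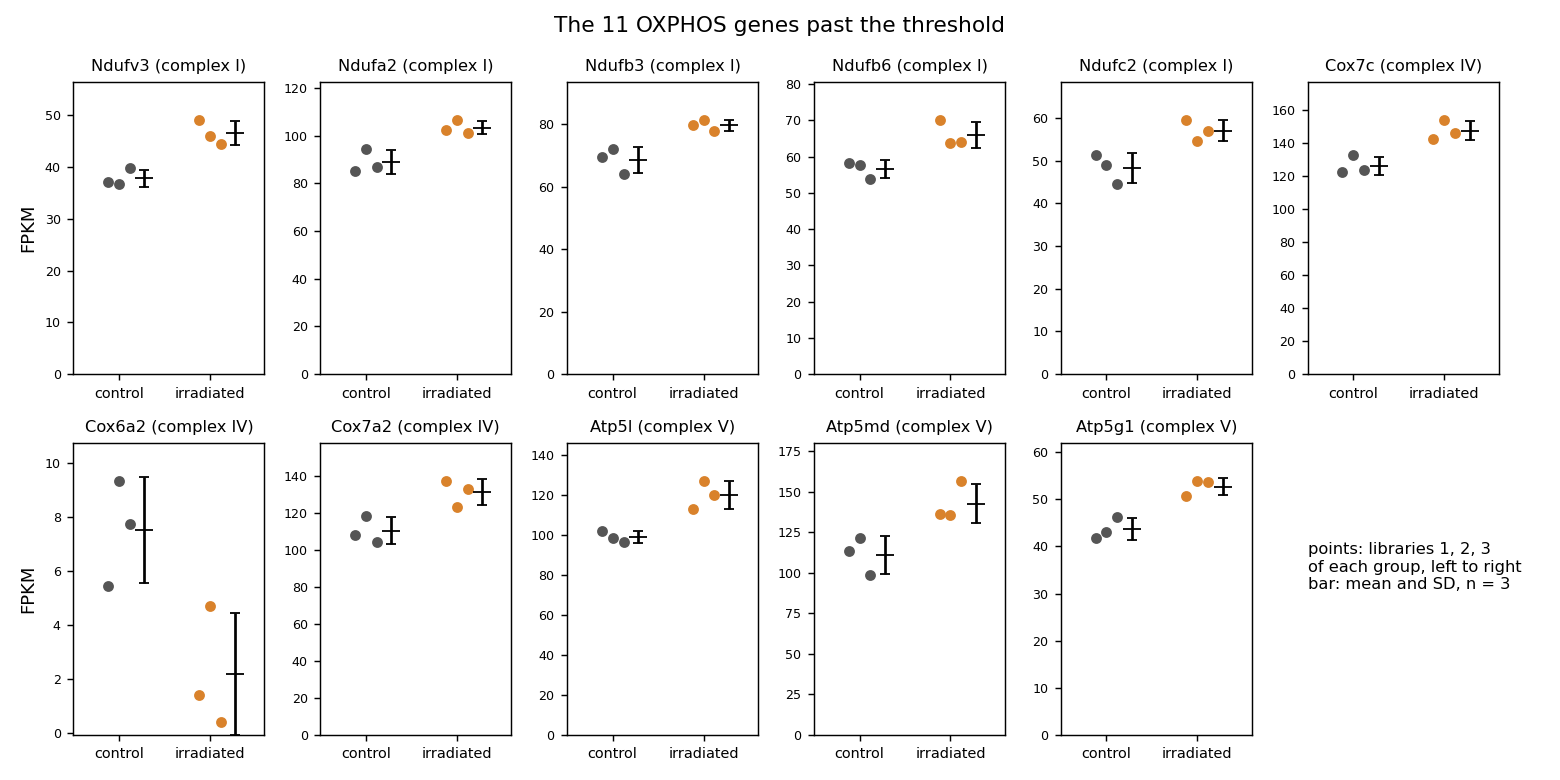
FPKM of the 11 OXPHOS genes past the threshold in each library (points), with mean and SD (n = 3). In each of the 10 risen genes the lowest irradiated point lies above the highest control point, and in Cox6a2 the order is the opposite.

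Genes that assemble, feed or regulate the chain were read from lists of related mitochondrial functions, against a background of 16.6% of all tested genes called in either direction. Of 19 tested assembly factors of complexes I and II, 0 were called, and of 28 for complexes III to V, 1 rose. That was Coa6, which helps to deliver copper to complex IV, at 11.2, 10.2 and 13.7 FPKM in control and 18.0, 19.4 and 19.4 FPKM after irradiation (log2 change 0.66 ± 0.11, adjusted p = 0.00161). No irradiated value falls within the control range. Of 19 tested genes for electron carriers and quinone synthesis 0 were called, and Cycs, the mobile cytochrome c, stood at 18.0 ± 2.13 and 16.6 ± 0.887 FPKM. The medians of these 3 lists were 0.00, -0.01 and 0.03 (log2), against -0.02 over all tested genes.

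Of 18 tricarboxylic acid cycle genes 1 rose, Dlst, a subunit of oxoglutarate dehydrogenase, from 60.3 ± 1.42 to 71.5 ± 1.85 FPKM (log2 change 0.24 ± 0.05, adjusted p = 0.0114). That call was lost without control replicate 2 (adjusted p = 0.0560) and without the variance trend (adjusted p = 0.0644). Of 9 tested genes for adenine nucleotide exchange and uncoupling 1 fell, Ucp2, an inner membrane carrier abundant in leukocytes. It read 555, 540.3 and 540.0 FPKM in control and 458, 434 and 447 FPKM after irradiation, with a wide gap between the groups (-0.29 ± 0.04, adjusted p = 0.000642). Of 17 tested regulators of mitochondrial biogenesis 0 were called. Tfam, the factor that packs and transcribes mitochondrial DNA, stood at 9.42 ± 0.438 and 7.64 ± 0.620 FPKM, separated but not past the threshold (-0.27 ± 0.11, adjusted p = 0.108; named after its values were seen), and Ppargc1a was at or below 0.0400 FPKM in each library and not tested.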

How the data were processed

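The submitters' processing notes name fastp, HISAT2 and StringTie and the builds GRCm38 and mm10, without versions or settings. Annotation, multimapping and whether counting used strand are not stated in the labels. What the authors deposited is a single FPKM value for each gene in each library; the unit was read from the values, since column totals differ and headers name none. Per the labels' protocols the kit was a stranded mRNA kit. The values carry no counts. Relative depth came from genes below 0.1 FPKM in control replicate 1 and another library: at the depth given, 128 to 209 of 225 to 341 such genes had a ratio within a relative 0.001 of a quotient of integers no larger than 6, and the others did not.

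The test, on genes averaging 1 FPKM or more, was limma 3.58.1 (lmFit, then eBayes with a trend; R 4.3.3) on log2(FPKM + 1), irradiated against control, two-sided, with Benjamini-Hochberg adjustment over 10666 genes and a threshold of 0.05. Fold changes on this scale understate the change of low genes. ± after a log2 change is a standard error and after a level an SD. P-values measure the spread between these libraries, which may be technical. The fit was tested on simulated data, in which the log2 changes were larger than those of the risen members. That test therefore does not bear on rises of their size. Groups came from the treatment label. Coordinates and promoters are from RefSeq GRCm38.p6, in which 88 of 88 members matched by symbol, and exon overlaps from GENCODE M21 on GRCm38. The members, their split by role and the lists were chosen with earlier results of these data known. Named genes were every called member, the highest and lowest and the 3 lowest p-values of each complex, members below the filter, 5 paralogue groups, and up to 4 called genes of each related list; other genes are named to account for the rest of a group and were picked after their values were seen. Alternatives were another pseudocount, filters, scalings, no trend, the replicate number as a block and fits without each library in turn.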

Additional observations from a re-analysis of the deposited data

How the results depend on the processing

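With a pseudocount of 0.1, median-of-ratios scaling or quantile normalization, the same 11 members were called in the same directions. With a minimum mean of 5 FPKM the 10 rises remained and 0 members were lower (0 in complex IV), since Cox6a2 was then not tested. Without a filter 5 members were higher and 0 lower, with 2 higher in complex I and 1 higher and 0 lower in complex IV. Without the variance trend 1 member was higher and 0 lower, with 1 higher in complex I, 0 higher and 0 lower in complex IV and 0 higher in complex V. Leaving out each library gave 414 to 684 genes higher and 722 to 978 lower over all tested genes, 4 to 7 members higher and 0 to 4 lower, 1 to 2 higher and 0 to 2 lower in complex I, 0 to 2 higher and 0 to 2 lower in complex IV, and 0 to 1 lower in complex V. The cause of these differences was not tested. No called member changed sign in any of these fits. Only median-of-ratios scaling and quantile normalization could have changed it. The groups of all 11 do not overlap, which fixes the sign in the other fits. The replicate numbers did not pair the libraries: deviations of same-numbered libraries correlated at -0.04 to 0.01 over all tested genes. With the numbers as a replicate block 9 members were higher and 1 lower, with 3 higher in complex I, since Ndufb6 and Ndufc2 lost their call and Cox6b2 gained one. The absolute depth is unknown, which limits genes near the floor such as Ndufb4c, Ndufa4l2, Cox4i2 and Cox7a1.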

Other observations

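Across the tested members, exonic length had a Spearman rho of -0.04 with the log2 change (80 members with a length in GENCODE M21) and the mean FPKM a rho of 0.14 (84 members), as descriptions across genes that share the same 6 libraries. Exact matches to the NRF1 word were in 6 of 15 promoters of complex V, 7 of 35 of complex I and 1 of 11 of complex IV. They were in 1 of 5 of complex III and 2 of 3 of complex II, against 12.3% of tested genes. All 10 YY1 matches were in complexes I (7 of 35 promoters) and V (3 of 15), against 5.78% of tested genes. Complexes I and V hold most of the promoters examined, and differences between complexes were not tested.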
